A study of Mus musculus with 24 samples.

Results

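The vacuolar-type proton pump, or V-ATPase, and the genes that work with it in acid secretion were followed through osteoclast differentiation of mouse bone marrow-derived macrophages (BMMs). The set holds 33 genes, picked by symbol from the count matrix, out of 54532 rows in all, and each was found once. It has 9 genes for the membrane-embedded V0 sector of the pump (among them Tcirg1, the a3 subunit), 11 for the V1 sector in the cytosol, 2 accessory subunits, 3 genes linked to pump assembly, the chloride exchanger Clcn7 with its partner Ostm1, 3 genes for proton supply and ion exchange, the traffic genes Snx10 and Plekhm1, and the secreted phosphatase Acp5.

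Cells were seeded at 15000 per well, and libraries were made from 250 ng of total RNA. Every mouse carried the Rosa26-Runx1tg/+ allele. In the control group ("Wild type control" by label) it came without Cre, and in the group labelled Runx1 overexpression it came with LysM-Cre, which is active in cells of the myeloid lineage, so the controls carry the transgene allele too. Each genotype was sampled at day 3 and at day 5 in M-CSF alone or in M-CSF (30 ng/mL) with the osteoclast-inducing cytokine RANKL (50 ng/mL), with 3 libraries numbered 1 to 3 in each of the 8 groups. The labels leave out how much M-CSF the wells lacking RANKL received, the age and sex of the mice and what the numbers mean, so p-values measure the spread between these libraries, which may be technical in part.

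The 24 libraries held 18975750 to 36523995 counts, so that 1 read was worth 0.0286 to 0.0542 CPM, the unit that scales each count to a common library total. Runx1 itself was no higher where the labels say overexpression: the log2 differences were 0.12 and 0.17 at day 3 without and with RANKL and 0.00 and 0.23 at day 5, each with an adjusted p of 1, and those libraries are called Runx1-labelled below. The 4 Runx1-labelled libraries of number 3 had 2 to 12 counts of Xist and reads from Y-linked genes, unlike all others. All samples are labelled osteoclasts, but the markers divide by medium: 8 osteoclast markers summed to 90.3 to 130 CPM in M-CSF alone and to 28141 to 48178 CPM with RANKL, and 8 macrophage markers to 7365 to 10256 and 2967 to 4580 CPM. Lymphoid markers summed to at most 0.746 CPM, with Cd3e at 0 in every library, and 7 stromal markers summed to 7.68 to 29.2 CPM at day 3 and 12.7 to 295 CPM at day 5. The highest stromal sums were 295 and 195 CPM, in Runx1-labelled libraries 1 and 2 at day 5 with RANKL. Since the samples are bulk RNA, fewer cells of a type and less RNA per cell cannot be told apart.

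As background, the V-ATPase is a rotary pump. Its V1 sector hydrolyses ATP, and the V0 sector carries protons across the membrane. In osteoclasts, lysosomes loaded with the pump fuse with the membrane facing bone, which becomes the ruffled border, and the acid released there dissolves mineral. Carbonic anhydrase supplies protons, bicarbonate leaves through an anion exchanger on the other side of the cell, and chloride moves with the protons. Loss of Tcirg1, Clcn7, Ostm1, Snx10 or Car2 causes osteopetrosis, a failure of bone resorption. Several subunits exist as paired isoforms of which 1 is widespread and the other restricted to certain tissues.

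Upstream sequence was looked at first because E-boxes are the known sites of the MiT family factors MITF and TFEB, which act in osteoclast and lysosome gene control. RefSeq promoters of 300 bases (250 before and 50 after the start, build GRCm38.p6) were matched by symbol for 24 of the 33 genes, with 35 promoters between them. The 9 genes not matched were Atp6v0a2, Atp6v0d2, Atp6v1b2, Atp6v1c1, Atp6v1g1, Atp6v1h, Car2, Dmxl1 and Wdr7. Their promoters were not searched, so nothing is known here of their motifs. The stretches of 30 bases shown here carry the extended E-box TCACGTGA or the related form TCATGTGA (either strand), in capitals, read 5′ to 3′ on the gene's strand.

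Atp6v1a: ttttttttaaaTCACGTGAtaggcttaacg
Clcn7: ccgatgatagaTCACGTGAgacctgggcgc
Atp6v0e: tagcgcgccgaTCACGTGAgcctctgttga
Atp6v0d1: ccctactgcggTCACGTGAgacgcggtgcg
Acp5: aagtccagtgcTCACATGAcccaaggggag
Atp6v0c: gcggggacagaTCATGTGAcgcgagcgcgg

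They lie at chr16:44139373-44139402 (minus strand), chr17:25133386-25133415 (plus), chr17:26676387-26676416 (plus), chr8:105566050-105566079 (minus), chr9:22130671-22130700 (minus) and chr17:24169449-24169478 (minus). With the start base counted as 1 and the base before it as −1, the capitals begin at −132, 7, 3, −4, −91 and −17. TCACGTGA was present in 4 of the 35 promoters, or 11.4%, against 0.974% of the 32851 promoters in the table, and TCATGTGA in 2 of 35 against 0.986%. Each TCACGTGA contains the core E-box CACGTG, which was found in 5 of 35 (14.3%) against 7.15%. The AP-1 form TGANTCA was found in the promoters of Atp6v0a1 and Snx10, 2 of 35 against 7.81%, and the RUNX form TGTGGT in 7 of 35 against 16.8%. These are matches of letters in a window and were compared with no binding data. Of the 4 genes with TCACGTGA, Clcn7, Atp6v1a and Atp6v0e were among those that rose with RANKL in all 4 comparisons below, while Atp6v0d1 moved little. Among the tested genes of the set as a whole, 24 of 30 rose in all 4. A link between motif and response was not tested.

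RANKL raised nearly the whole pump. In control cells at day 3, 26 of the 30 genes with enough counts to be tested were higher with RANKL than in M-CSF alone and 2 were lower, at an adjusted p under 0.05 in edgeR's quasi-likelihood test across all 15035 genes tested. Among all genes 29.5% were higher and 29.7% lower in that comparison. The median log2 fold change was 1.71 for the 30 genes and −0.03 for all genes. Atp6v0e2, Atp6v1b1 and Atp6v1c2, isoforms known from other tissues, had too few counts to be tested in any comparison.

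The same picture held in each of the other 3 comparisons of the media. The 4 comparisons share no library with one another. They come from 1 fit, though, and libraries of 1 genotype and number may share an animal across the days. In Runx1-labelled cells at day 3, 25 were higher and 1 lower (all genes 29.1% and 30.1%). At day 5 in control cells, 25 were higher and 1 lower (all genes 26.4% and 23.1%), and in Runx1-labelled cells at day 5, 24 were higher and 3 lower (27.5% and 24.9%). The medians were 1.75, 1.47 and 1.42, against −0.02, 0.03 and 0.03 over all genes. All 30 genes had the same sign in the 4 comparisons, 24 were higher in each of them, and Atp6v0a1 was the 1 gene lower in each.

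**Figure D1:**
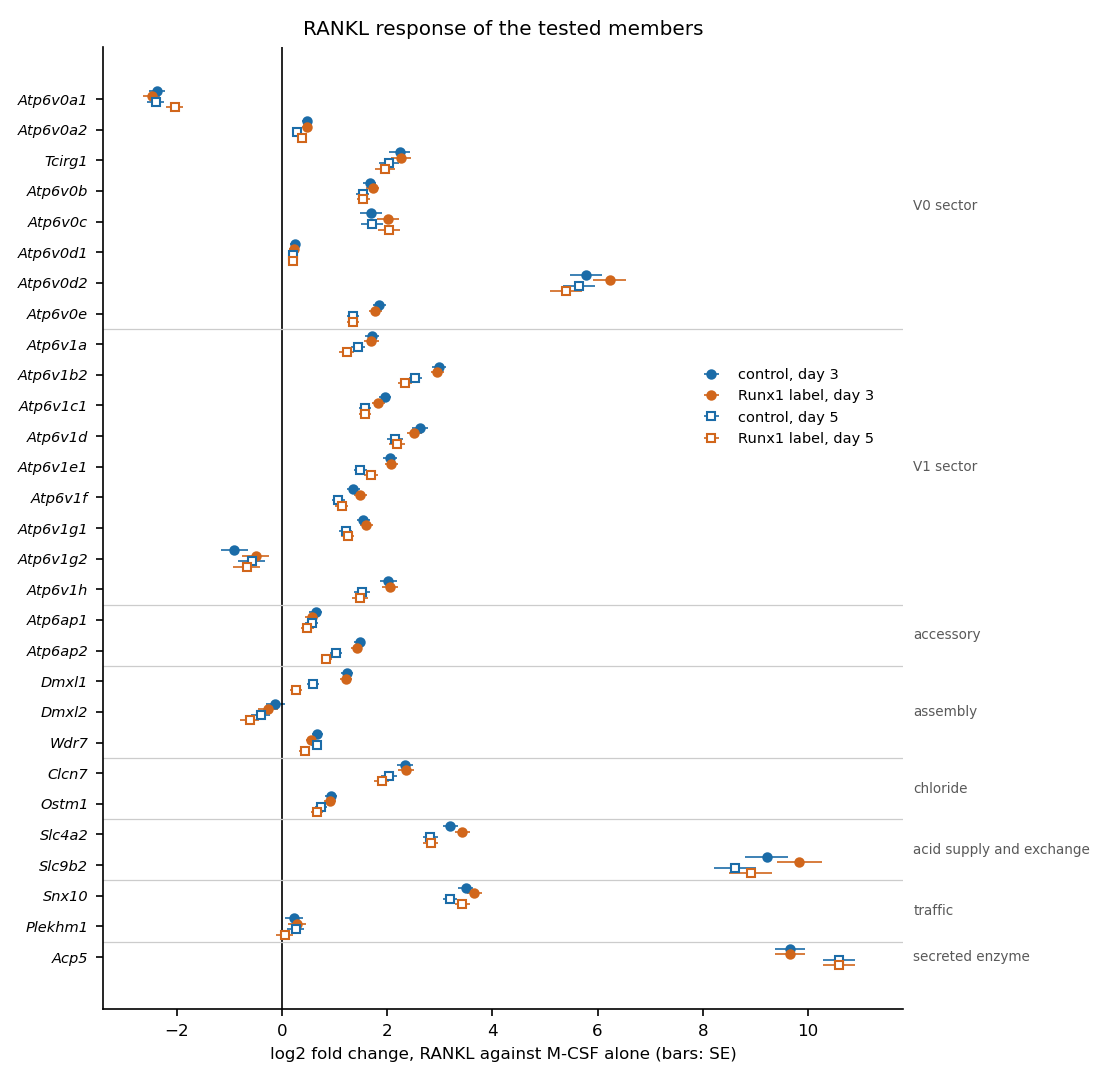
Log2 fold change of RANKL against M-CSF alone (horizontal axis, bars show the SE) for 29 of the 30 tested genes, grouped by role, in control (blue) and Runx1-labelled (orange) cells at day 3 (filled circles) and day 5 (open squares). Car2 is left off because it had 0 to 4 counts per library in M-CSF alone. Most points lie between 1 and 4, with Atp6v0a1 at about −2 and Atp6v0d2, Slc9b2 and Acp5 far to the right.

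The V0 sector was described first. Its 9 genes include 3 forms of subunit a, the part that anchors the pump and forms the proton path, and the forms differ in where they send the pump. Where values are set against each other, those in M-CSF alone come first. Tcirg1 (chr19:3896050-3907133, minus strand, in the files' coordinates), the a3 form of lysosomes and the ruffled border, stood at 577, 408 and 382 CPM in control libraries 1, 2 and 3 in M-CSF alone at day 3. With RANKL it stood at 2629, 2189 and 1618 CPM. The groups lay far apart, with a log2 fold change of 2.24 (SE 0.19, adjusted p = 2.35e-09). Runx1-labelled libraries at day 3 gave 415, 569 and 381 CPM without and 2349.5, 2459.9 and 1738 CPM with RANKL. At day 5 control cells had 408, 402 and 403 CPM in M-CSF alone and 1655, 1646 and 1648 CPM with RANKL, and Runx1-labelled cells had 401, 402 and 376 against 1569, 1246 and 1766 CPM. In every pair of groups all RANKL libraries lay above all M-CSF libraries, and the log2 fold changes were 2.26 (SE 0.19) at day 3 in Runx1-labelled, 2.03 (SE 0.19) at day 5 in control and 1.96 (SE 0.19) at day 5 in Runx1-labelled cells.

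Atp6v0a1 (chr11:101009452-101063719, plus strand), the a1 form common in neurons and in many other cells, went the other way. In control cells at day 3 it fell from 268, 300 and 324 CPM to 69.2, 53.9 and 49.2 CPM, a change of −2.37 (SE 0.16, adjusted p = 6.55e-11). In the Runx1-labelled libraries it fell from 306, 262 and 316 to 44.8, 67.7 and 46.7 CPM. The media did not overlap in either genotype. At day 5 the values were 336, 368 and 357 CPM against 68, 67.9 and 65.6 CPM in control and 274, 242 and 349 against 79.1, 63.9 and 67.8 CPM in Runx1-labelled cells, with log2 fold changes of −2.40 (SE 0.16) and −2.04 (SE 0.16). Atp6v0a2, the a2 form known from the Golgi and endosomes, rose slightly. It read 41.8, 50.9 and 47.5 CPM in M-CSF alone and 66.2, 63.6 and 65 CPM with RANKL in control cells at day 3, and 61.2, 54.7 and 57.7 against 70.7, 73.7 and 67.1 CPM at day 5. Runx1-labelled cells had 45.5, 44.3 and 52.6 against 67, 62.8 and 69.1 CPM at day 3 and 48, 48.7 and 59.4 against 67.6, 63.3 and 72.4 CPM at day 5. The log2 fold changes of Atp6v0a2 were between 0.28 and 0.48, all past the threshold, and its call at day 5 in control cells did not hold with every library left out in turn.

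Per length, the a-subunit genes therefore changed their proportions. As a share of the summed CPM per kilobase of the 3 genes, Tcirg1 made up 73.2%, 63.1% and 60.2% in control libraries 1, 2 and 3 in M-CSF alone at day 3 and 96.6%, 96.5% and 95.5% with RANKL. At day 5 it made up 60.2%, 58.3% and 58.9% against 94.7%, 94.5% and 94.9%. The Runx1-labelled libraries gave 63.5%, 73.2% and 60.4% against 96.9%, 96.6% and 95.7% at day 3, and 64.7%, 67% and 57.6% against 94.1%, 93.6% and 94.9% at day 5. So a3 already led in M-CSF alone, at a mean of 59.1% to 65.7% in the 4 groups, and reached 94.2% to 96.4% with RANKL. Over all 24 libraries the log2 ratio of Tcirg1 to the other 2 genes rose by 3.60 with RANKL (exact permutation test, medium labels permuted within genotype and day, two-sided p = 1.25e-05, the smallest that its 160000 arrangements allow; adjusted p = 2.5e-05 over 6 ratios). That test takes the libraries as separate units, though libraries of 1 genotype and number may share an animal. With these 6 numbered sets as units, an exact sign-flip test over 64 arrangements gave p = 0.03125 (adjusted p = 0.0375).

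Subunit d links the turning ring to the stalk, and its pair showed the widest exchange. Atp6v0d2 (chr4:19876841-19922605, minus strand), the form enriched in osteoclasts and needed for the fusion of their precursors, rose from 34.2, 27.8 and 36.6 CPM to 1882, 1956 and 1605 CPM in control cells at day 3, a log2 fold change of 5.79 (SE 0.30, adjusted p = 3.10e-12). In the Runx1-labelled group it went from 23, 18.2 and 36.8 to 2186, 1931 and 1737 CPM (6.23, SE 0.31). The RANKL libraries exceeded those in M-CSF alone by far in both genotypes. At day 5 control cells went from 15.6, 18.9 and 30.9 CPM to 1007, 1086 and 1163 CPM (5.64, SE 0.30) and Runx1-labelled cells from 29, 18.8 and 30.5 to 1119, 815 and 1373 CPM (5.40, SE 0.30). Atp6v0d1 (chr8:105524465-105566047, minus strand), the widespread form, barely moved. It read 211, 211 and 203 against 250.3, 261 and 235 CPM in control cells at day 3 without and with RANKL, and 159, 180.0 and 184 against 199.7, 199 and 208 CPM at day 5. Runx1-labelled cells read 238, 219 and 204 against 283, 254 and 236 CPM at day 3, and 178, 157 and 164 against 194, 163 and 221 CPM at day 5. Its log2 fold changes lay between 0.21 and 0.26. Only that at day 3 in control cells passed the threshold (adjusted p = 0.0291), and not with every library left out in turn.

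Atp6v0d2 thus went from a minor to the major d-subunit transcript. Its share of the pair, per length, was 9.64%, 8% and 10.6% in the control libraries in M-CSF alone at day 3 and 83.2%, 83.2% and 81.8% with RANKL. At day 5 the shares were 6.09%, 6.47% and 9.98% against 76.9%, 78.3% and 78.7%. In Runx1-labelled cells they were 5.99%, 5.21% and 10.6% against 83.6%, 83.4% and 82.9% at day 3, and 9.71%, 7.32% and 11% against 79.2%, 76.8% and 80.4% at day 5. Over 24 libraries the log2 ratio of d2 to d1 rose by 5.57 with RANKL (exact permutation test as above, adjusted p = 2.5e-05). The sign-flip test over the 6 numbered sets gave an adjusted p of 0.0375. Atp6v0d1 itself changed by at most 0.26 log2 units.

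**Figure D2:**
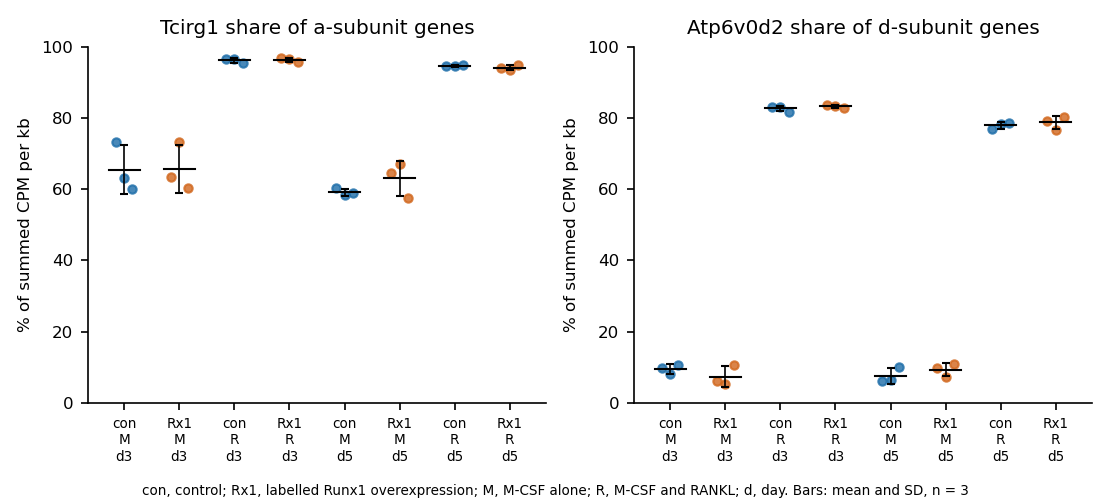
Share of Tcirg1 among the 3 a-subunit genes (left) and of Atp6v0d2 among the 2 d-subunit genes (right), in percent of summed CPM per kilobase, for each library (points) with mean and SD (n = 3) in the 8 groups. With RANKL the Tcirg1 share is above 93% and the Atp6v0d2 share above 76% in every library, and in M-CSF alone the Atp6v0d2 share is at most 11%.

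The remaining V0 genes are Atp6v0b (subunit c″) and Atp6v0c (the c subunit), which build the proton-carrying ring, and Atp6v0e (the small subunit e). They rose in all 4 comparisons, by 1.53 to 1.73, 1.70 to 2.04 and 1.36 to 1.85 log2 units. Atp6v0e stood at 126, 139.6 and 137 CPM in control libraries in M-CSF alone and 495, 524 and 436 CPM with RANKL at day 3, and at 134, 147 and 149 against 350.1, 367 and 383 CPM at day 5. The Runx1-labelled libraries had 161, 130.2 and 139 against 534, 479 and 460.3 CPM at day 3, and 139, 131 and 139 against 332, 288 and 427 CPM at day 5. None of these groups overlapped between media. For Atp6v0c, Runx1-labelled library 1 in M-CSF alone at day 3 stood at 102 CPM, against 236 and 237 CPM in the other 2. Atp6v0c overlaps another protein-coding model on its strand and has processed pseudogenes (Atp6v0c-ps1 and Atp6v0c-ps2), so the assignment of its reads is uncertain.

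Atp6v0e2, the partner of Atp6v0e known mainly from brain, was near absent. Its counts were 7, 1 and 4 against 1, 6 and 1 in control libraries at day 3 without and with RANKL and 1, 0 and 5 against 4, 4 and 1 at day 5. In Runx1-labelled libraries they were 9, 3 and 1 against 2, 0 and 4 at day 3, and 3, 1 and 3 against 3, 0 and 6 at day 5. At most 9 reads in a library do not show a difference between media in this gene itself. A ratio of Atp6v0e2 to Atp6v0e at such counts mostly restates the rise of Atp6v0e (1.36 to 1.85) and is not read as isoform choice.

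In the V1 sector, 8 of 9 tested genes were higher with RANKL in each of the 4 comparisons. The catalytic head is made of alternating A and B subunits. Atp6v1a, the A subunit that hydrolyses ATP, rose from 784 ± 86.6 to 2574 ± 248 CPM in control cells at day 3 (SD, n = 3) and from 659.7 ± 44.2 to 1804 ± 46.8 CPM at day 5, with log2 fold changes of 1.72 (SE 0.14) and 1.45 (SE 0.14). Atp6v1b2 (chr8:69088646-69113711, plus strand), the B2 form found in most cells and abundant in osteoclasts, rose further. Control libraries at day 3 went from 465, 444 and 421 to 3613, 3758 and 3174 CPM (2.99, SE 0.13, adjusted p = 1.20e-13), and at day 5 from 437, 454 and 448 to 2469, 2539 and 2763 CPM. The Runx1-labelled libraries went from 501, 492 and 437 to 4104, 3642 and 3356 CPM at day 3, and from 500.1, 458 and 453 to 2390.3, 1849 and 2907 CPM at day 5. The log2 fold changes in these 3 comparisons were 2.54 at day 5 in control and 2.96 and 2.34 at days 3 and 5 in Runx1-labelled cells.

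The different slopes changed the order of the 2 head subunits. Per length, the level of Atp6v1b2 was 0.648 ± 0.0403 of that of Atp6v1a in control cells in M-CSF alone at day 3 (SD, n = 3) and 1.56 ± 0.0199 with RANKL. At day 5 the ratio was 0.773 ± 0.0388 against 1.64 ± 0.0852. In Runx1-labelled cells it was 0.679 ± 0.0512 against 1.61 ± 0.0553 at day 3, and 0.79 ± 0.0652 against 1.7 ± 0.0458 at day 5. The A gene was thus the higher of the pair in all 12 libraries in M-CSF alone and the B2 gene in all 12 with RANKL. The values across genes rest on exon lengths from the deposited table, but the change in the ratio does not. Atp6v1b1, the B1 form of kidney and inner ear, had 0 to 4 counts per library, in order 0, 0 and 1 against 0, 4 and 0 in control cells at day 3, and 0, 2 and 0 against 2, 0 and 0 at day 5, without and with RANKL. In Runx1-labelled cells the counts were 0, 1 and 1 against 0, 0 and 3, then 1, 0 and 0 against 0, 0 and 0. The B-subunit reads were thus nearly all from B2 in either medium, and a change in B1 itself was not detectable at this depth.

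Subunits C and H sit where V1 meets V0 and take part in the joining and parting of the sectors. Atp6v1c1 rose from 176, 187 and 197 to 697, 785 and 698 CPM in control cells at day 3 and from 195, 198 and 199.8 to 566, 573 and 629 CPM at day 5. Runx1-labelled cells went from 225, 198 and 202 to 821, 691 and 713 CPM, and from 193, 172 and 196 to 548, 443 and 691 CPM. Its log2 fold changes were 1.58 to 1.96. Atp6v1c2, the restricted C2 form, had 3, 3 and 0 against 1, 1 and 0 counts in control cells at day 3, and 5, 1 and 2 against 1, 1 and 0 at day 5. In Runx1-labelled cells it had 0, 0 and 5 against 1, 2 and 1, then 3, 1 and 2 against 1, 1 and 2. The C-subunit reads were nearly all from C1, and a change in C2 itself was not detectable at this depth. Atp6v1c2 overlaps Pdia6 on the other strand, and no label says whether the counting used strand. The same limit holds for Atp6v1b2, Atp6v1e1, Atp6v1h and Slc4a2. They overlap the protein-coding genes Slc18a1, Slc25a18, Rgs20 and Fastk on the other strand. Atp6v1h rose from 85.9, 103 and 125 to 402, 466 and 406 CPM in control cells at day 3 and from 124, 136 and 130.1 to 354, 367 and 394 CPM at day 5. Runx1-labelled libraries moved from 97.2, 88.6 and 125 to 459, 399 and 429 CPM, and from 112, 118 and 131 to 326, 262 and 428 CPM. The log2 fold changes of Atp6v1h were 2.05 or less in each comparison, with 2.02 (SE 0.16) in control cells at day 3.

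The stalks of V1 are built from D, E, F and G. Atp6v1d, part of the central rotor, had the second largest rise of the sector. It went from 107, 101 and 91.1 to 655, 669.8 and 529 CPM in control cells at day 3 (2.63, SE 0.15, adjusted p = 5.20e-12) and from 74.8, 82.8 and 88.7 to 345, 358 and 392 CPM at day 5. With the Runx1 label it went from 124, 121 and 98.8 to 706, 688 and 573 CPM, and from 83.2, 73.8 and 76.8 to 357, 269 and 440.3 CPM. Atp6v1e1, part of the peripheral stalks, rose from 140.2, 143 and 152 to 652, 662 and 494 CPM in control cells at day 3 and from 178, 181 and 191 to 493, 518 and 538 CPM at day 5. For the Runx1-labelled cells the values were 145, 151 and 161 against 729, 689.7 and 517 CPM, then 166, 156 and 175 against 552, 443 and 607 CPM. Atp6v1f, the other rotor part, rose by 1.07 to 1.49 log2 units. In all of these the media did not overlap.

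Subunit G has a widespread form, Atp6v1g1, and a form of neurons, Atp6v1g2. Atp6v1g1 rose from 134, 160.4 and 156 to 436, 474 and 410.3 CPM in control cells at day 3 and from 163, 170.3 and 194 to 384, 404 and 435 CPM at day 5. For Runx1-labelled libraries the change ran from 127, 148 and 156 to 472, 429.5 and 408 CPM, and from 164, 171 and 168 to 402, 312 and 485 CPM. Atp6v1g2 was low throughout, at 4.29, 3.03 and 2.9 CPM without and 1.35, 2.17 and 1.96 CPM with RANKL in control cells at day 3 and 2.89, 3.41 and 3.5 against 1.82, 2.73 and 2.04 CPM at day 5. The Runx1-labelled libraries had 3.1, 4.62 and 3.28 against 2.63, 2.67 and 2.5 CPM, then 3.48, 4.39 and 3.54 against 3.39, 1.92 and 1.89 CPM. It fell in control cells at day 3 (−0.90, SE 0.26, adjusted p = 0.00535) and in Runx1-labelled cells at day 5 (adjusted p = 0.0314, not with every library left out in turn), and the other 2 comparisons gave −0.50 and −0.57 without passing. Its share of the G pair, per length, went from 1.04% ± 0.34 to 0.187% ± 0.0416 in control cells at day 3 (SD, n = 3), and the log2 ratio fell by 2.07 over all 24 libraries (exact permutation test, adjusted p = 2.5e-05). The sign-flip test over the 6 numbered sets gave an adjusted p of 0.0375. Part of that fall is the rise of Atp6v1g1, and Atp6v1g2 itself did not pass in every comparison. Atp6v1g2 overlaps Nfkbil1 on the other strand, and reads of the 2 genes cannot be told apart without a strand setting.

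The accessory subunits guide assembly and sorting of the pump. Atp6ap1 and Atp6ap2 (the prorenin receptor) rose in all 4 comparisons, by 0.48 to 0.64 and 0.85 to 1.48 log2 units. Atp6ap1 had the smaller change, from 478 ± 21.6 to 744 ± 141 CPM in control cells at day 3 (SD, n = 3), and Atp6ap2 went from 298 ± 18.6 to 829.8 ± 102 CPM. Among the genes linked to assembly, Dmxl1 and Wdr7, both related to the yeast RAVE complex that joins V1 to V0, rose with RANKL at day 3 (1.24 and 0.67 in control, 1.22 and 0.55 in Runx1-labelled cells). At day 5 Wdr7 rose in both genotypes and Dmxl1 in control cells (0.59), while Dmxl1 in Runx1-labelled cells was at 0.26 (SE 0.12, adjusted p = 0.0655). With the number as a block it passed (0.26, adjusted p = 0.0427). Dmxl2, the homologue known from neurons and endocrine cells, had negative values in all 4 comparisons and passed in Runx1-labelled cells at day 5 (−0.61, SE 0.18, adjusted p = 0.00826).

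Clcn7, the chloride-proton exchanger of lysosomes and the ruffled border, and Ostm1, its obligatory partner, rose together but not alike. Clcn7 went from 247, 226 and 197 to 1263, 1204 and 905 CPM in control cells at day 3 (2.33, SE 0.15, adjusted p = 3.28e-11) and from 185, 199 and 199.7 to 793, 816 and 791 CPM at day 5. Runx1-labelled libraries gave 208, 258 and 216 against 1269.7, 1237 and 997 CPM at day 3, and 204, 179.9 and 196 against 747, 550.3 and 857 CPM at day 5. All RANKL libraries were at least 2 times above all those in M-CSF alone of the same genotype and day. Ostm1 rose by 0.93 (SE 0.12) in control cells at day 3 and by 0.66 to 0.92 in the other comparisons.

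The 3 proton supply and ion exchange genes rose in all 4 comparisons. Car2 (chr3:14886273-14900770, plus strand), the carbonic anhydrase that makes protons from carbon dioxide and water, went from 4, 0 and 0 counts to 403, 426 and 376 CPM in control cells at day 3 and from 0, 1 and 1 counts to 279, 273 and 286 CPM at day 5. Runx1-labelled cells went from 0, 1 and 0 counts to 416, 396 and 377 CPM, and from 0, 4 and 2 counts to 258, 199 and 312 CPM. With so few reads in M-CSF alone, the size of the rise is known only within wide limits. From the summed counts per group, scaled by library size, the ratio was 6784 (exact 95% interval 2649 to 24900.0, counting error only) in control cells at day 3 and 8095 (2241 to 66851) at day 5. In Runx1-labelled cells it was 28967 (5198 to 1144160.0) and 2911 (1337 to 7934), and the 4 intervals share values between 5198 and 7934. All 4 comparisons passed the threshold.

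Slc4a2 (chr5:24423837-24440950, plus strand), the anion exchanger AE2 that exports bicarbonate, rose from 81.2, 81.8 and 90.3 to 751, 852 and 721 CPM in control cells at day 3 (3.20, SE 0.14, adjusted p = 1.68e-13). At day 5 it went from 100.4, 98.8 and 93.4 to 692, 689 and 687 CPM. In the Runx1-labelled group it went from 67.2, 71.6 and 84.1 to 858, 769 and 778 CPM, and from 76.7, 93 and 92.6 to 616, 468 and 780.0 CPM. The media were apart in each case, with Runx1-labelled library 2 the lowest of its group at day 5. Slc9b2, a sodium-proton antiporter of late osteoclast differentiation, rose from 0.886, 0.932 and 1.09 to 571, 644 and 530.1 CPM in control cells at day 3 (9.22, SE 0.41), and from 1.4, 1.03 and 1.65 to 512, 538 and 549 CPM at day 5. The Runx1-labelled libraries had 0.0805, 0.557 and 1.3 against 633, 557 and 553 CPM, then 0.339, 1.07 and 1.42 against 437, 318 and 617 CPM.

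The 2 traffic genes parted. Snx10 (chr6:51523901-51590679, plus strand), a sorting nexin needed for the ruffled border, rose from 97.5, 99.7 and 89.3 to 1102, 1179 and 951 CPM in control cells at day 3 (3.50, SE 0.14, adjusted p = 3.61e-14) and from 89.2, 84.3 and 88.7 to 729, 794 and 886 CPM at day 5. Runx1-labelled cells went from 99.6, 103 and 92.5 to 1403, 1347 and 983 CPM, and from 84.1, 84.3 and 86.3 to 1009, 736 and 997 CPM. Plekhm1, an adaptor for lysosome fusion whose loss also causes osteopetrosis, passed in none of the 4 comparisons. It stood at 361, 283 and 226 CPM in M-CSF alone and 329, 365 and 326 CPM with RANKL in control cells at day 3, so the groups overlapped, and its log2 differences were 0.23, 0.29, 0.26 and 0.05.

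Acp5, the tartrate-resistant phosphatase secreted at the resorption site, rose from 10.4, 9.51 and 7.66 to 8668, 7956 and 5547 CPM in control cells at day 3 (9.65, SE 0.29) and from 4.39, 4.39 and 6.6 to 8278, 7851 and 7637 CPM at day 5 (10.59, SE 0.31). Runx1-labelled libraries moved from 8.33, 11.6 and 10.4 to 9552, 8919.8 and 5957 CPM, and from 5.66, 4.35 and 6.95 to 10100.2, 7264 and 8567 CPM. Number 3 was the lowest library at day 3 with RANKL in both genotypes.

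**Figure D3:**
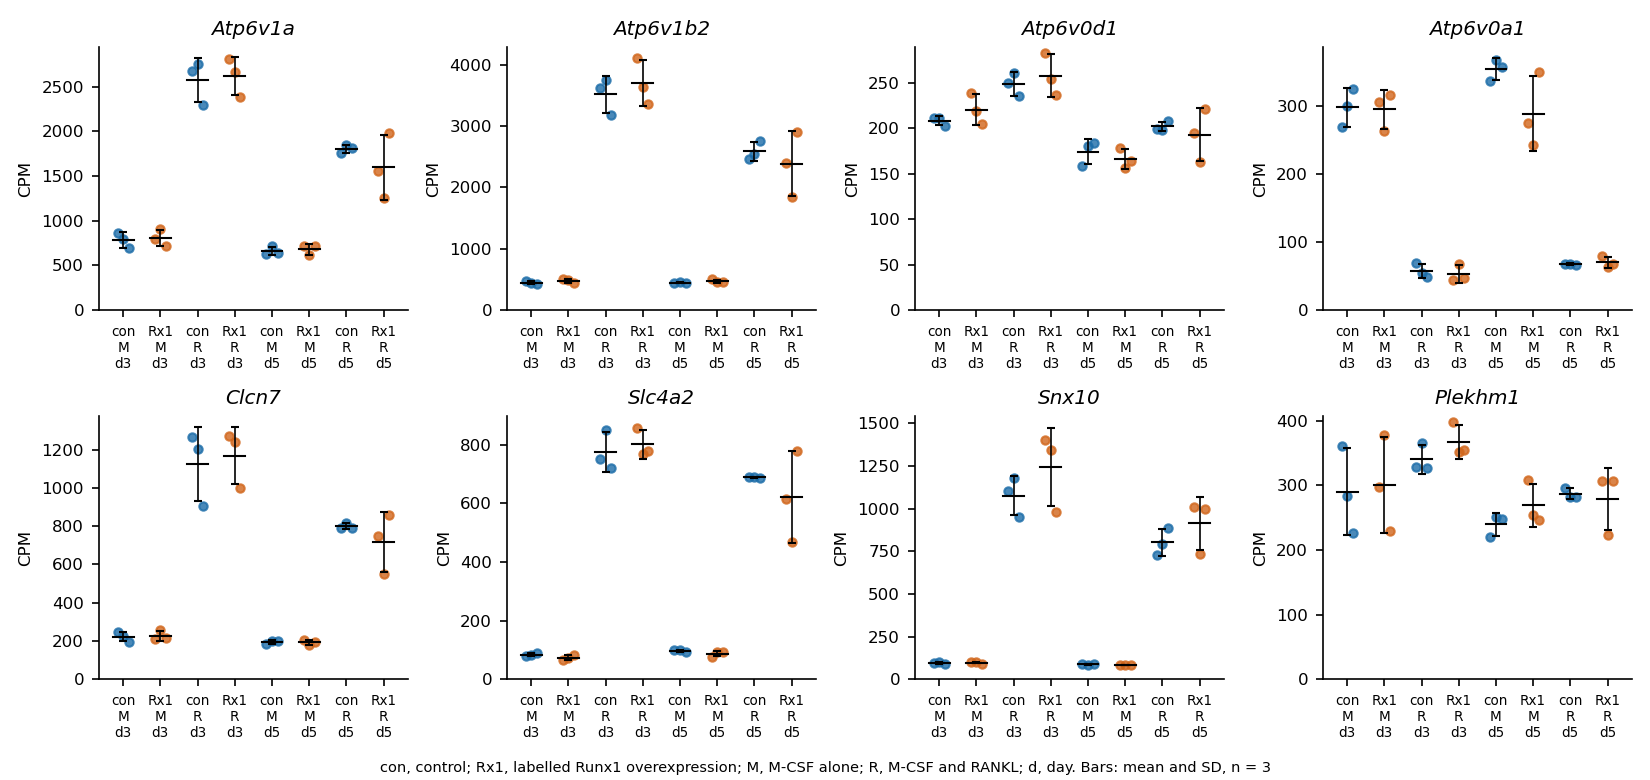
CPM of 8 genes in each library (points) with mean and SD (n = 3) in the 8 groups; the axes start at 0. Atp6v1a, Atp6v1b2, Clcn7, Slc4a2 and Snx10 lie higher with RANKL at both days, Atp6v0a1 lies lower, and Atp6v0d1 and Plekhm1 change little.

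The order of levels, per length, changed with the medium. In control cells in M-CSF alone at day 3 the highest of the 33 genes was Atp6ap1, at 158 ± 7.15 CPM per kilobase (SD, n = 3), followed by Atp6v1g1 at 132 ± 12.6, Atp6v1a at 129.6 ± 14.3 and Atp6v0b at 122 ± 6.12. Those 3 did not differ beyond their spread. With RANKL Acp5 came first, at 3640.4 ± 806 CPM per kilobase, then Atp6v0d2 at 668 ± 68.1 and Atp6v1b2 at 663 ± 57.3, which lay within their spread, and then Tcirg1 at 480.0 ± 113 and Atp6v1a at 426 ± 41. Atp6v0d2 had stood at 12.1 ± 1.66 CPM per kilobase in M-CSF alone. Summed over the 20 subunit genes, the level was 1007 to 1080.3 CPM per kilobase in the 3 control libraries in M-CSF alone and 3729 to 4484 with RANKL at day 3.

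Genotype made no detectable difference to any of the genes. At day 3 in M-CSF alone, at day 3 with RANKL, at day 5 in M-CSF alone and at day 5 with RANKL, 0 of 30 genes passed in either direction between Runx1-labelled and control libraries, and 0% of all genes did. No member had an unadjusted p under 0.05 in edgeR's test in any of these 4 comparisons, against 530, 258, 948 and 457 of all genes, and DESeq2 also called 0 members. The difference between genotypes in the RANKL response was likewise called for 0 of 30 genes at day 3 and at day 5 (0% of all genes), with 0 members at an unadjusted p under 0.05.

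The intervals say how large a difference could have been missed. At day 5 with RANKL the 95% intervals of all 30 genes lay within a log2 difference of −1 to 1, and at day 3 with RANKL those of 29 did, the exception being Atp6v1g2. In M-CSF alone the intervals of Car2 and Slc9b2, which have few reads there, were wider at both days. With RANKL the log2 differences of the 30 genes ran from −0.12 (Atp6v0a1) to 0.51 (Atp6v1g2) at day 3 and from −0.22 (Slc9b2) to 0.19 (Snx10) at day 5. The widest interval bounds were −0.55 (Slc9b2) and 1.06 (Atp6v1g2) at day 3 and −0.77 (Slc9b2) and 0.66 (Atp6v1g2) at day 5. The 3 isoform ratios with enough reads did not differ detectably between genotypes: the log2 ratios of the a and d pairs differed by 0.05 and 0.00, and that of the G pair by 0.28, each with an adjusted p of 1.0 in an exact permutation test over 3 against 3 numbered sets. That test cannot go below 0.10. Without the Runx1-labelled number 3 set, 0 of 30 genes passed in each of the 4 genotype comparisons as well. Since Runx1 counts were not detectably higher in these libraries, the comparison is between labels.

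**Figure D4:**
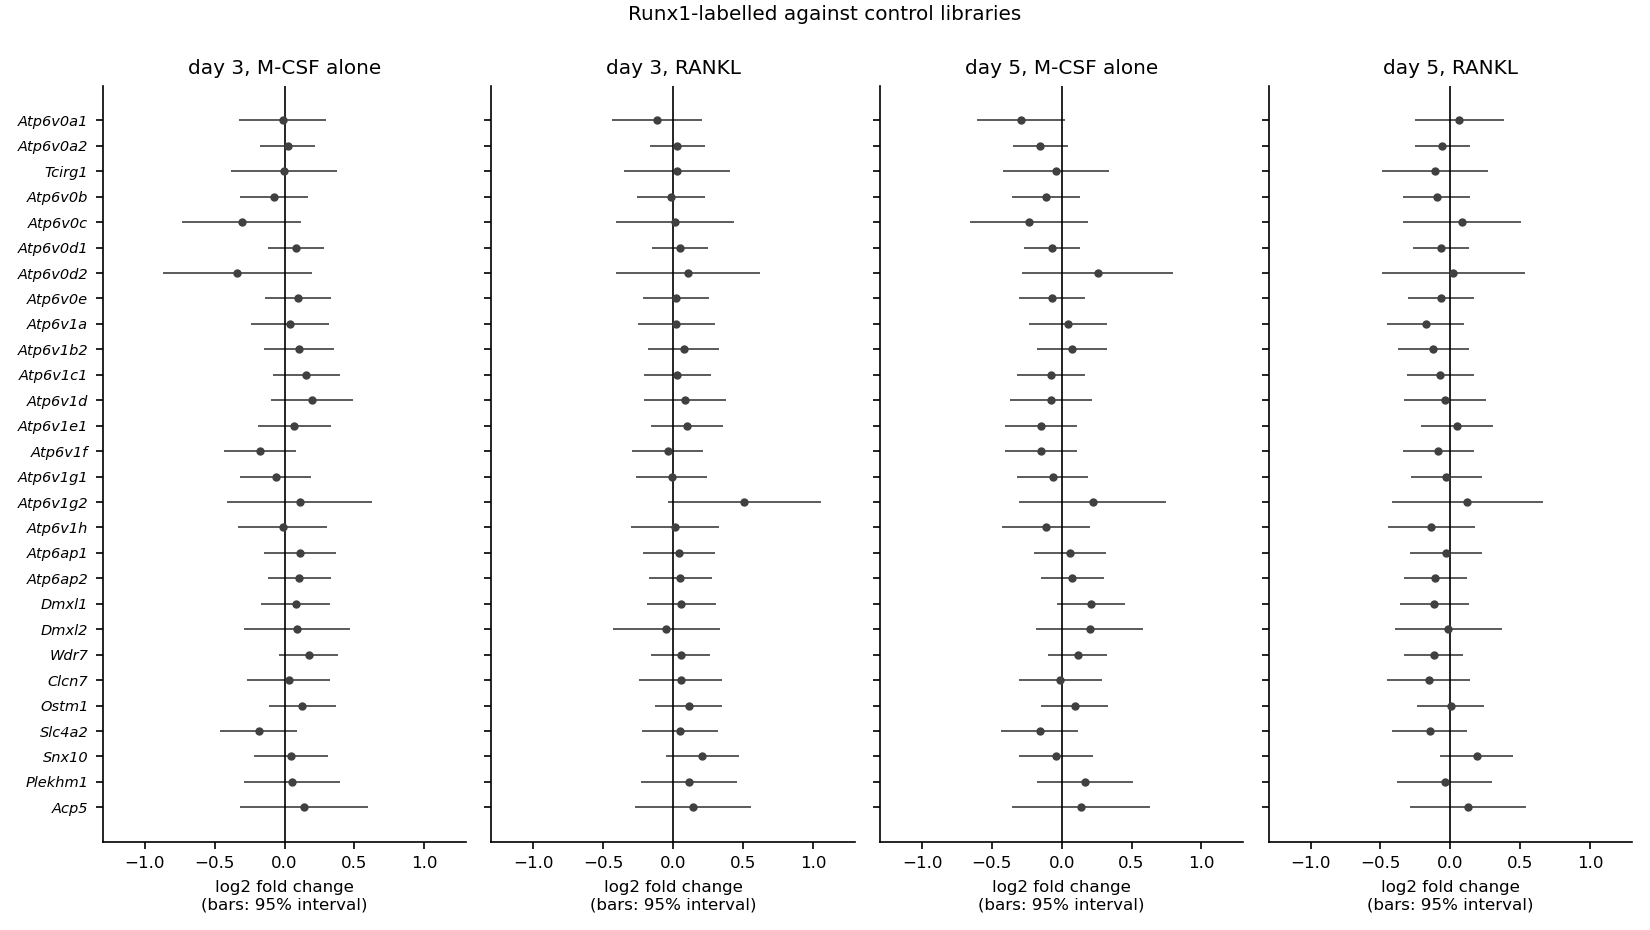
Log2 fold change of Runx1-labelled against control libraries (horizontal axis, bars show the 95% interval) for 28 tested genes in 4 panels, 1 for each day and medium. Car2 and Slc9b2 are left off because of their few reads in M-CSF alone. The points lie close to 0 and no gene passed the threshold.

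Between day 3 and day 5 in RANKL the pump genes fell back. In control cells 12 of 30 genes were lower at day 5 and 0 higher (all genes 12.7% lower and 14.1% higher), and in Runx1-labelled cells 17 were lower and 1 higher (15.6% and 17.6%). All 12 of the control calls were among the 17. The medians over the 30 genes were −0.29 and −0.39, while over all genes they lay between −0.02 and 0. In terms of sign, 25 of 30 genes had a value below 0 in control and 26 in Runx1-labelled cells.

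Falls were called in every role except the secreted enzyme. Dmxl1 fell most in both genotypes, by 0.78 log2 units in control (adjusted p = 1.00e-04) and 0.95 in Runx1-labelled cells. Atp6v1d fell by 0.76 (adjusted p = 5.68e-04) and 0.88, and Atp6v0d2 by 0.74 and 0.82. In the head, Atp6v1a fell by 0.51 and 0.71 and Atp6v1b2 by 0.44 and 0.64. Clcn7 fell by 0.49 and 0.70, Car2 by 0.52 and 0.63 and Snx10 by 0.42 and 0.44. Atp6v0d1, Atp6v0e, Atp6ap2 and Wdr7 complete the 12, with log2 values of −0.30, −0.40, −0.34 and −0.32 in control cells. Tcirg1, Atp6v1c1, Atp6v1f, Ostm1 and Slc4a2 were called lower in Runx1-labelled cells and not in control cells. None of those calls held with every library left out in turn. Acp5 was at 0.10 (SE 0.20) and 0.09 (SE 0.20) and passed in neither genotype. The same was true of Atp6v0a2, Atp6v0b, Atp6v0c, Atp6v1e1, Atp6v1g1, Atp6v1g2, Atp6v1h, Atp6ap1, Slc9b2, Plekhm1 and Dmxl2. Atp6v0a1, the isoform that RANKL lowers, was the 1 gene called higher, in Runx1-labelled cells (0.41, SE 0.15, adjusted p = 0.0468). That call was lost when single libraries were left out.

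These counts rest on few libraries. With 1 library of the compared groups left out in turn, the 12 control calls became 3 to 15, with 15 found without day 3 number 3, 3 left without day 5 number 1, 4 without day 3 number 2, 6 without day 5 number 2 and 7 without day 3 number 1 or day 5 number 3. The 17 Runx1-labelled calls became 9 to 19 (23 without the number 3 set), with 9 left without day 5 number 2 and 10 without day 3 number 1. Atp6v1a, Atp6v1d and Dmxl1 were lower in both genotypes whichever library was left out. Beside this stand facts on single libraries. At day 5 with RANKL, Runx1-labelled library 2 was the lowest of its 3 for 28 of the 30 genes and library 3 the highest for 24, and their osteoclast marker sums were 28141 and 37382 CPM, against 39746 CPM in library 1. At day 3 with RANKL, number 3 was the lowest for 25 genes in control and for 22 in Runx1-labelled cells, with osteoclast marker sums of 29972 and 33678 CPM against 40259 to 48178 CPM in the other 4. Markers of other cells moved between the same days. With RANKL, 3 of 8 macrophage markers were higher at day 5 in control and 4 of 8 in Runx1-labelled cells, with 0 lower in both. In control cells Adgre1 went from 173 ± 63.6 to 301 ± 12.4 CPM and Cd14 from 39.6 ± 11.2 to 131 ± 7.21 CPM (SD, n = 3). Siglec1 and Marco also had higher means at day 5 there, and Mrc1, Mertk, Csf1r and Cd68 had lower ones. The macrophage marker sum in control cells was 2967 to 4198 CPM at day 3 and 3337 to 3526 CPM at day 5. In Runx1-labelled cells it was 3049 to 4580 and 3371 to 3902 CPM. Of the 8 neutrophil granule markers 1 was higher and 3 lower in control, and 5 higher and 2 lower in Runx1-labelled cells. Of the 4 stromal markers tested 0 were higher in control and 3 in Runx1-labelled cells, where the stromal sum was 28.6 to 295 CPM at day 5 and 11.1 to 22.6 CPM at day 3. In control cells that sum was also higher at day 5, at 33.1 to 77.3 CPM against 13.8 to 29.2 CPM at day 3. The part of these cells and libraries in the gene values was not tested.

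**Figure D5:**
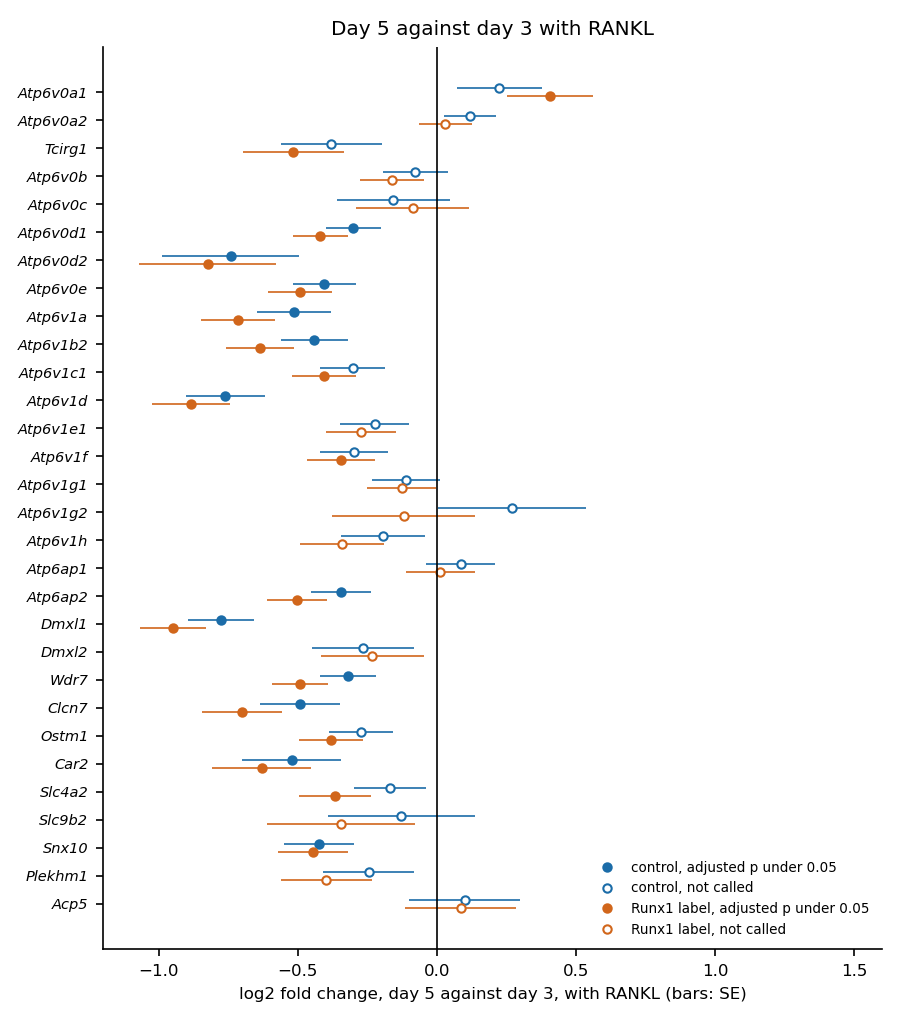
Log2 fold change of day 5 against day 3 with RANKL (horizontal axis, bars show the SE) for the 30 tested genes in control (blue) and Runx1-labelled (orange) cells; filled points have an adjusted p under 0.05 and open ones do not. Most points lie left of 0, with Dmxl1, Atp6v1d and Atp6v0d2 furthest.

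In M-CSF alone the same days differed little. In control cells 1 gene was higher at day 5, Atp6v0a2 at 0.31, and 2 were lower, Acp5 at −0.84 and Wdr7 at −0.31 (all genes 12.2% higher and 11.5% lower). In Runx1-labelled cells 0 were higher and 4 lower, namely Acp5 (−0.84), Atp6v1d (−0.55), Atp6v0d1 (−0.41) and Wdr7 (−0.37), against 7.17% and 7.08% of all genes. None of these 7 calls held with every library left out in turn, and without day 5 number 2 of the Runx1-labelled cells, or day 3 number 1 or day 5 number 1 of the control cells, 0 genes were lower. As shares of the 30 genes, the calls came to 3.33% higher and 6.67% lower in control and 0% and 13.3% in Runx1-labelled cells.

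The test of the change in response compared the RANKL effect at day 5 with that at day 3, averaged over the genotypes. The effect was smaller at day 5 for 11 of 30 genes and larger for 1 (all genes 14.2% and 14.2%). The 11 included 7 of the V1 subunits, with Atp6v1b2 at −0.53 (SE 0.12, adjusted p = 0.00214) and Atp6v1h at −0.53 (SE 0.15, adjusted p = 0.0111), and Atp6v0e of the V0 sector, as well as Atp6ap2, Slc4a2 and Dmxl1, the last at −0.80 (SE 0.12, adjusted p = 2.65e-05). In control cells Atp6v1h went from 105 ± 19.5 CPM at day 3 to 130 ± 5.57 CPM at day 5 in M-CSF alone (SD, n = 3). With RANKL it went from 425 ± 35.9 to 372 ± 20.3 CPM. Atp6v1e1 went from 145 ± 5.94 to 184 ± 6.89 CPM and from 603 ± 93.8 to 516 ± 22.3 CPM. Atp6v1b2 went from 443 ± 22.2 to 446 ± 8.42 CPM and from 3515 ± 304 to 2590 ± 154 CPM. Neither Atp6v1h nor Atp6v1e1 was called between the days in either medium. The 1 gene with a larger response was Acp5, at 0.93 (SE 0.21, adjusted p = 0.00241), which was at 0.10 and 0.09 between the days with RANKL and at −0.84 in M-CSF alone in both genotypes. Atp6v0d2 was at −0.49 (SE 0.25, adjusted p = 0.161) and Clcn7 at −0.38 (SE 0.14, adjusted p = 0.0537), which did not pass. Without any 1 of 6 libraries (day 3 number 2 and day 5 numbers 1 and 2 of the control RANKL cells, and day 3 number 1 and day 5 numbers 1 and 2 of the Runx1-labelled RANKL cells) 7 calls were left, and without the Runx1-labelled number 3 set there were 17.

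Other genes of acid secretion moved in both directions, and their counts stand against 29.5% higher and 29.7% lower among all genes in control cells at day 3. Of 10 tested further subunits, assembly factors and relatives of the pump-binding protein OXR1, 5 were higher and 2 lower with RANKL in control cells at day 3, with Oxr1 itself at 1.22 (SE 0.10), Tldc1 at 1.12 (SE 0.13) and Tbc1d24 at 0.96 (SE 0.12), and Ncoa7 at −1.25 (SE 0.11) and Tmem9 at −1.11 (SE 0.16). The other 3 comparisons of the media gave 4 higher and 2 lower each. Of 15 other chloride, proton and lysosomal channel genes, 3 were higher and 7 lower, so the share higher was below that of all genes. Clic4, of the chloride intracellular channel family, rose from 209 ± 43.5 to 756 ± 129 CPM, and Clic5 from 0.0827 ± 0.106 to 19.6 ± 5.8 CPM, while Slc9b1, the close relative of Slc9b2, rose from 0.0756 ± 0.0557 to 4.23 ± 0.356 CPM. Mcoln2 at −1.83 (SE 0.16), Clic1 at −0.66 (SE 0.10) and Clcn5 at −1.07 (SE 0.18) fell.

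Of 19 tested carbonic anhydrase, bicarbonate, sodium-proton and lactate carrier genes, 6 were higher and 4 lower, shares near those of all genes. The bicarbonate carriers Slc4a7, Slc4a8 and Slc4a3 rose by 1.18 (SE 0.15), 4.54 (SE 0.48) and 3.77 (SE 0.52), the last 2 from under 1 CPM. The endosomal exchanger Slc9a9 went from 214 ± 35.6 to 12.7 ± 5.68 CPM, a change of −4.06 (SE 0.32), and Slc26a11 and Car5b were at −2.65 (SE 0.39) and −0.87 (SE 0.19). On the lysosome list 3 of 18 genes were higher and 12 lower, against 29.5% and 29.7% of all genes. Its structural membrane protein Lamp1 fell from 2194 ± 407 to 463 ± 90.4 CPM (−2.25, SE 0.18) and the sorting receptor Sort1 from 184 ± 27.6 to 12.6 ± 3.6 CPM (−3.87, SE 0.24), and Rubcn was at −1.47 (SE 0.11). The lysosome-positioning GTPases Arl8b and Rab7 and the SNARE Vamp8 rose, by 0.97 (SE 0.12), 0.33 (SE 0.08) and 0.33 (SE 0.12). At day 5 in control cells 1 of the 18 was higher and 10 lower, against 26.4% and 23.1% of all genes. The macrophage marker sums were lower in the same libraries, and their part in the fall of lysosome genes was not tested. No gene of these 4 lists passed between genotypes.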

How the data were processed

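RNA was sequenced from 24 libraries of mouse bone marrow-derived macrophages, 3 in each of 8 groups. The authors deposited raw read counts per gene, with gene lengths and positions, in 1 table, per the file headers. STAR, DESeq2 and GRCm39 appear, without roles, in the submitters' processing notes, yet 31 of the 33 genes have the same position as in GENCODE M21 (GRCm38) and 2 do not, and coordinates here are those of the deposited table. For the annotation version and strand setting, these sources give no statement.

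From the counts, edgeR 4.0.16 (R 4.3.3; filterByExpr with a minimum of 10 counts and a total of 15, TMM scaling, robust quasi-likelihood test on all 24 libraries, 1 coefficient a group) tested 15035 of 54532 genes, 27.6%, with Benjamini-Hochberg adjustment over all of them and a threshold of 0.05. Totals ran from 18975750 to 36523995 counts a library and the median biological coefficient of variation was 16%. CPM per kilobase used the deposited gene lengths, a column in bases that the authors supplied. Isoform ratios, log2 of counts plus 0.5 per kilobase, were tested by exact permutation, with p-values adjusted over 6 ratios. With 0 to 9 counts per library of Atp6v0e2, Atp6v1b1 and Atp6v1c2, the ratios of e, B and C mostly restate the level of the abundant partner and are not read as isoform choice. The ratio of G also carries the rise of its abundant partner Atp6v1g1. Car2 intervals are exact 95% binomial intervals (scipy 1.17.1) on summed counts and cover counting error only. The scripts were tested on simulated data.

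The 33 genes and all lists were chosen with earlier results of these data known. All 33 are accounted for. Values in every library are given for the paired isoforms and for genes called with a log2 change of at least 2 in a control comparison of the media, and other genes are given by group. Genes outside the set are the up to 3 per direction with the smallest adjusted p in control cells at day 3. Of the 12 comparisons between 2 groups, libraries with the same number deviated together in every pair (correlation over 0.1) only for RANKL against M-CSF alone at day 5 in Runx1-labelled cells (0.21, 0.166 and 0.369), where a fit with the number as a block gave 25 genes higher and 3 lower, against 24 and 3. Below that cut, pairing by number was also seen between the media at day 3. The correlations there were 0.324, 0.0984 and 0.31 in control and 0.077, 0.281 and 0.313 in Runx1-labelled cells. Pairs of different numbers reached at most 0.0284 and −0.00331. Between genotypes, number 3 was at 0.461 and 0.361 at day 3 and 0.206 and 0.145 at day 5, without and with RANKL. Different numbers reached 0.533, 0.348, 0.126 and 0.0704. Alternatives were DESeq2 1.42.0 and its size factors, no filter, the block, the compared groups alone, each library left out, the Runx1-labelled number 3 set left out, another added count, no division by length, and each day alone.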

Additional observations from a re-analysis of the deposited data

Results flagged for a closer look

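For 12 of the 30 tested genes the response to RANKL differed between the days, by a test of the difference itself (edgeR's quasi-likelihood test, adjusted p under 0.05, day 5 minus day 3, mean of the genotypes, log2 units). Among all genes the response was larger for 14.2% and smaller for 14.2%. In the V1 sector the response was smaller at day 5 for Atp6v1a (−0.37), Atp6v1b2 (−0.53), Atp6v1c1 (−0.32), Atp6v1d (−0.40), Atp6v1e1 (−0.48), Atp6v1g1 (−0.35) and Atp6v1h (−0.53). It was also smaller for Atp6v0e (−0.46), Atp6ap2 (−0.51), Slc4a2 (−0.49) and Dmxl1 (−0.80), and larger for Acp5 (0.93). Of the 11 smaller responses, 7 held with every library left out in turn, namely Atp6v0e, Atp6v1b2, Atp6v1e1, Atp6v1h, Atp6ap2, Slc4a2 and Dmxl1, and so did that of Acp5.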

How the results depend on the processing

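The counts of genes higher or lower with RANKL stayed within 1.5 times of the reported ones under every alternative that kept all libraries of a group, except that with only the compared groups in the fit 3 genes were lower at day 5 in control cells. All genotype counts stayed at 0. Day 5 against day 3 moved more. With RANKL in Runx1-labelled cells, 0 genes were higher with DESeq2 size factors, with the replicate block, with the compared groups alone, without the number 3 set and by DESeq2's test, and 11 were lower with the compared groups alone. With RANKL in control cells 7 were lower with no filter. In M-CSF alone, control cells had 0 higher and 1 lower with no filter and 2 higher and 4 lower with the replicate block, and Runx1-labelled cells had 1 lower with the compared groups alone. The RANKL response was smaller at day 5 for 7 genes with no filter and for 17 without the number 3 set. The ratio of C2 to C1 was −1.85 at day 3 alone (exact permutation test, adjusted p = 0.065), and that of e2 to e was −1.15 at day 5 alone (0.17) and −1.84 with the numbers as a block (0.09375). Both ratios rest on few counts of the rare isoform. The cause of these differences was not tested. The block changed no other call count by over 1.5 times.

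With single libraries left out, genes higher with RANKL numbered 25 to 26 (day 3) and 24 to 25 (day 5) in control and 25 to 26 and 24 to 26 in Runx1-labelled cells, and genes lower 2 to 2, 1 to 2, 1 to 2 and 2 to 3. Day 5 against day 3 gave 3 to 15 lower in control and 9 to 19 lower and 0 to 1 higher in Runx1-labelled cells with RANKL, and 0 to 2 higher and 0 to 2 lower in control and 0 to 4 lower in Runx1-labelled cells in M-CSF alone. The RANKL response was smaller at day 5 for 7 to 15 genes. The log2 ratios ran from 3.52 to 3.71 (a), 5.49 to 5.67 (d), −2.46 to −1.40 (e), −2.97 to −2.51 (B), −2.61 to −1.86 (C) and −2.15 to −1.94 (G) between media, and from −0.03 to 0.14, −0.13 to 0.12, −0.52 to 0.33, −0.51 to 0.01, −0.53 to 0.40 and 0.20 to 0.40 between genotypes. DESeq2 size factors moved the median of all genes by at most 0.06 log2 units. Atp6v0e2, Atp6v1b1, Atp6v1c2 and, in M-CSF alone, Car2 and Slc9b2 are limited by depth.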
